A study of Homo sapiens with 10 samples.

Results

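The 10 genes described here are switched on by ERK signaling, which they report or dampen, and were measured in PC-3, a line of human prostate cancer cells that grows without androgen. They are the phosphatases DUSP4, DUSP5 and DUSP6, the Sprouty genes SPRY2 and SPRY4, the Sprouty-related genes SPRED1 and SPRED2, the ETS-family transcription factors ETV4 and ETV5, and PHLDA1. The set was given as a list of symbols, drawn up with earlier results of these data known, and its genes were found by the gene name that the scanner files give each spot that is not a control. All 10 genes were on the array, out of 28090 named genes, with 17 of the 41000 probes and 1 spot per probe. All 17 probes were well above background on all 10 arrays, so that the filter on dim probes removed none of the 10 genes, which are among the 19718 genes tested.

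The data were total RNA on 10 single-color whole-genome arrays of Agilent, 2 for each of 5 groups, which the titles call biological replicates. The first group was untreated cells at 0 h, and 4 groups had been treated for 24 h: with DMSO (the solvent), with luteolin (a plant flavonoid) at 60 µM, with gefitinib (an inhibitor of the kinase of the epidermal growth factor receptor, EGFR) at 60 µM, or with both drugs at these doses. The drugs were dissolved in DMSO, and each was given at 1 dose and 1 time. Groups are named here by the titles of the samples, but the names of the scanner files disagree with the titles for all 6 drug-treated arrays. The file names carry gefitinib for the arrays titled luteolin, luteolin plus gefitinib for those titled gefitinib, and luteolin for those titled luteolin plus gefitinib. Nothing in the files settled which is right, so every drug below is the drug of the title.

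ERK is the last kinase of the cascade that runs from growth factor receptors such as EGFR through RAS, RAF and MEK. Active ERK induces genes that carry its signal on, among them the ETV transcription factors, and genes that feed back on the pathway: the DUSP proteins take phosphate off ERK and related kinases, and the Sprouty and SPRED proteins act on the steps between the receptor and RAF. The mRNAs of these genes are widely used as a readout of ERK activity in cancer cells.

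**Figure D1:**
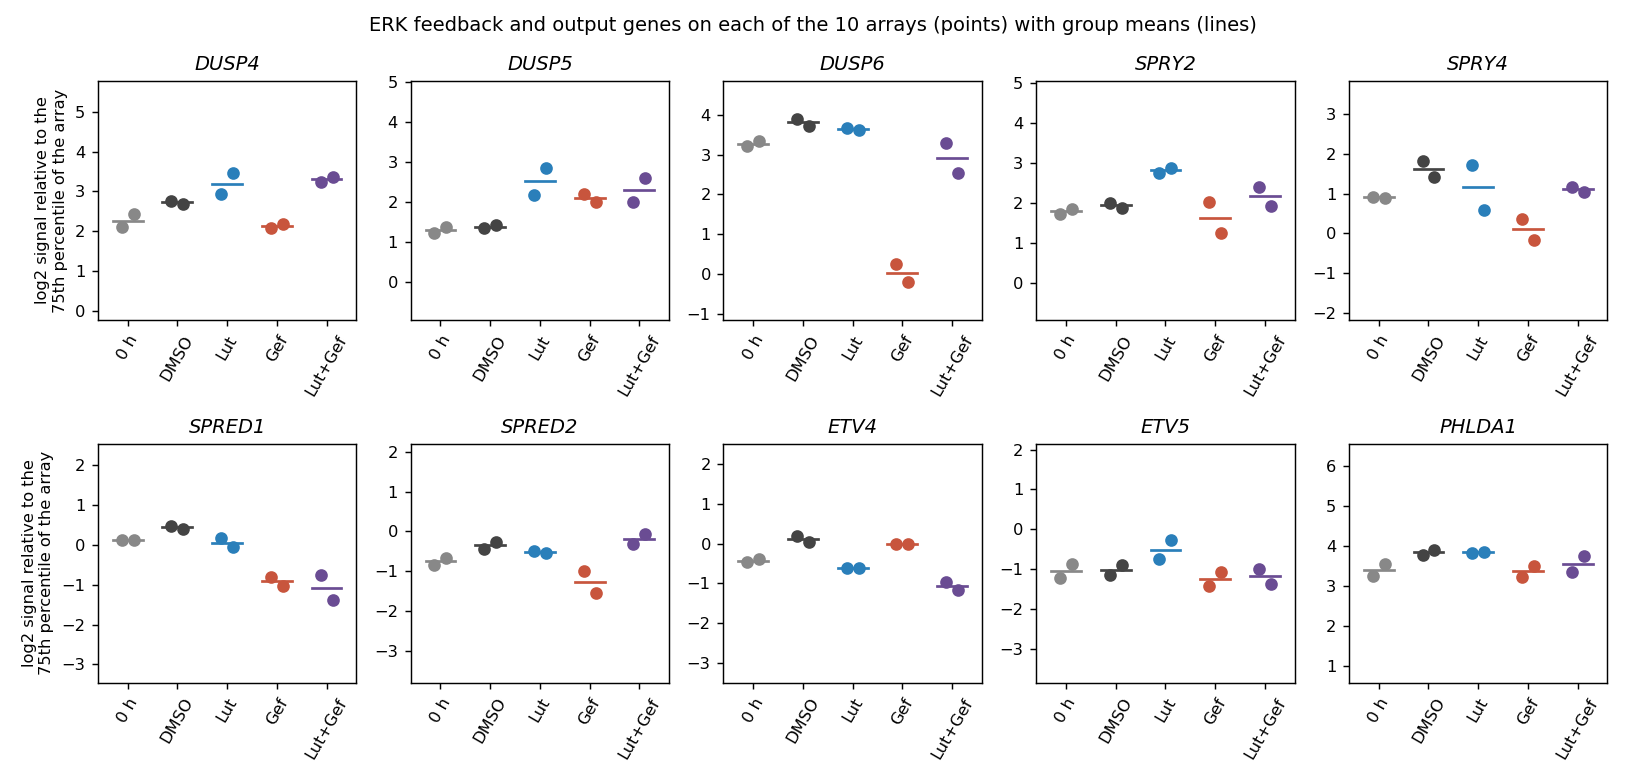
Level of each of the 10 genes on each of the 10 arrays, as log2 signal over the 75th percentile of its array, with 1 panel per gene, points for the 2 arrays of a group and a line for their mean. Panels share the height of the scale but not its place, since levels of different probes are not compared. DUSP6 on the gefitinib-titled arrays, at 0.25 and -0.21, stands farthest from the other groups of its panel.

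The arrays were of unequal brightness. The 75th percentile of the signal ran from 539.8 to 1402 (a linear intensity). It was lower on every drug-treated array than on the 0 h and DMSO arrays (1177 to 1402). By title it was 1173 and 1041 with luteolin, 650.7 and 628.4 with gefitinib, and 864.6 and 539.8 with both drugs. The part of this difference in the results was not tested. No spot was saturated. The spread within a group, as the median over all genes of the SD of its 2 arrays, was smallest for DMSO (0.09 on the log2 scale) and largest for luteolin plus gefitinib (0.26), so the precision differed between groups. The epithelial markers KRT8, KRT18, CDH1 and EPCAM were well above background on all 10 arrays, with a summed level from 30.0 to 51.6 times the 75th percentile in the group means. KLK3, a secreted protease of the prostate, was also well above background on all 10. Markers of other cell types were mixed: of the stromal ones DCN was on 0 of 10, COL1A2 on 2, LUM on 8, and COL1A1 and COL3A1 on 9, and of the leukocyte ones PTPRC was on 0 while CD3E and CD14 were on all 10. Of the endothelial ones PECAM1 was on all 10, and VWF and CDH5 were on 1. Their part in the results was not tested. The arrays lay on 3 slides, none of which held all 5 groups.

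Of the 10 genes, 3 fell in the gefitinib-titled cells against DMSO: DUSP6 by 13.8-fold, SPRY4 by 2.84-fold and SPRED1 by 2.56-fold. This count stands beside a background of 29.9% of all genes called in that comparison, 14.3% lowered and 15.6% raised. A gene was called when its adjusted p was under 0.05 and its change at least 2-fold. In the luteolin-titled cells 1 gene passed, DUSP5, which rose 2.19-fold against a background of 13.4% called (7.22% raised). In the cells titled luteolin plus gefitinib 2 genes passed, SPRED1 and ETV4, both lowered, against a background of 19.8% called (7.69% lowered). DUSP4, SPRY2, SPRED2, ETV5 and PHLDA1 were called in none of these 3 comparisons. By the file names the falls of DUSP6, SPRY4 and SPRED1 would belong to luteolin plus gefitinib, the rise of DUSP5 to gefitinib, and the falls of SPRED1 and ETV4 to luteolin. By the adjusted p alone 3, 5 and 4 genes passed with luteolin, gefitinib and both, beside 26%, 55% and 41.3% of all genes. The median change of the 10 genes was -0.08, -0.54 and -0.22 on the log2 scale for luteolin, gefitinib and both, and that of all genes tested 0.08, 0.22 and 0.16.

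**Figure D2:**
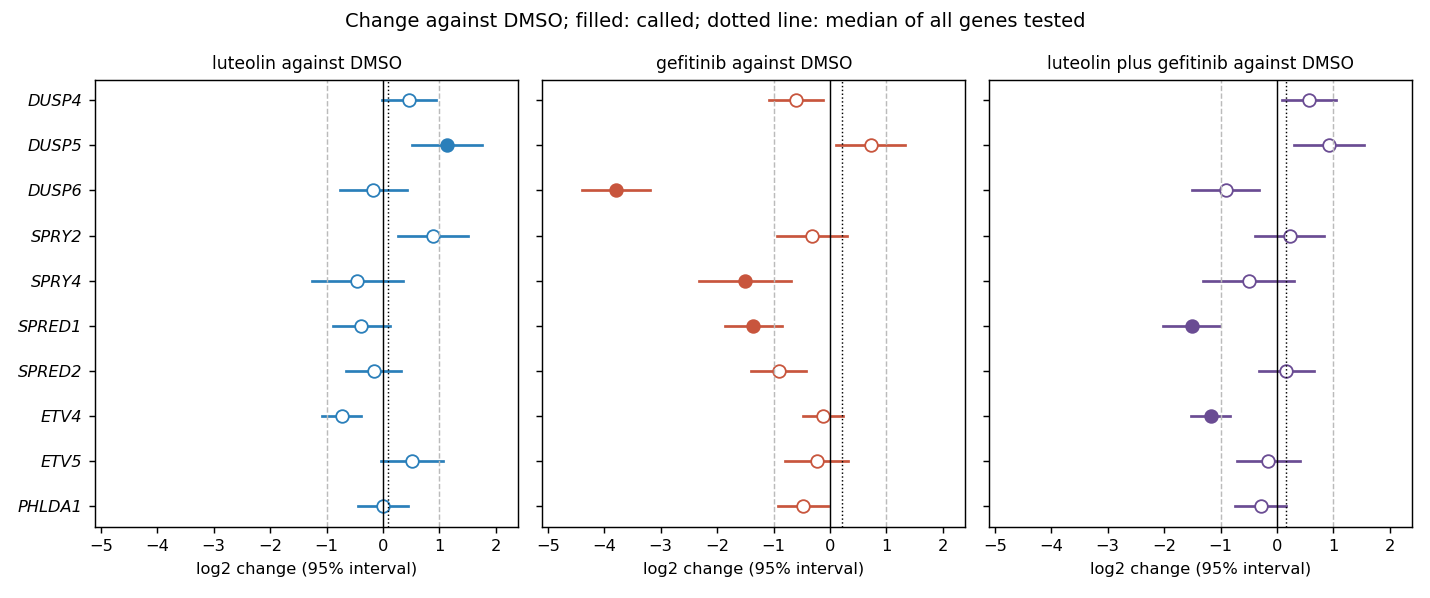
Log2 change of each of the 10 genes against DMSO, in 1 panel per drug title, with 95% intervals from the limma fit. Filled points passed the adjusted p and the 2-fold minimum, dashed lines mark a 2-fold change and dotted lines the median of all genes tested. DUSP6 at -3.79 in the gefitinib panel lies apart from the other 9 genes.

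The promoters of the 3 genes lowered with gefitinib are printed next, with that of PHLDA1, which was not called. They are the 250 bases before the start of each transcript in RefSeq (GRCh38.p14), 5′ to 3′ on the strand of the gene. Capitals mark CGGAA on either strand (TTCCG on the strand shown), the core that ETS factors such as ETV4, ETV5 and ELK1 bind. The windows are chr12:89352502-89352751 for DUSP6, chr5:142324248-142324497 for SPRY4, chr15:38252586-38252835 for SPRED1 and chr12:76031777-76032026 for PHLDA1, all on the reverse strand except SPRED1.
DUSP6: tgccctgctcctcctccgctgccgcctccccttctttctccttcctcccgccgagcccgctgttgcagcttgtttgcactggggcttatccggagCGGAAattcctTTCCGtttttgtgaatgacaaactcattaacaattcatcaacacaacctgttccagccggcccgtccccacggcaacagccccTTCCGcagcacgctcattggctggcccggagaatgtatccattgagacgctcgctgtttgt
SPRY4: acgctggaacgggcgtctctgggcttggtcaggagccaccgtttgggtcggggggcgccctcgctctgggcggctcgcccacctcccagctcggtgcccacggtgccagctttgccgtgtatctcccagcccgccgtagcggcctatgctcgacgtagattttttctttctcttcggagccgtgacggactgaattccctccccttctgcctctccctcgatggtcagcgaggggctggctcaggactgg
SPRED1: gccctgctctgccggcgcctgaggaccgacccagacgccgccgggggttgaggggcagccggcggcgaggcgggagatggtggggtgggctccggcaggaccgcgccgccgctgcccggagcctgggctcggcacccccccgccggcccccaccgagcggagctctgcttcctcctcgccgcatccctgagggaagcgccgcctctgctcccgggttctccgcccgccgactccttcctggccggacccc
PHLDA1: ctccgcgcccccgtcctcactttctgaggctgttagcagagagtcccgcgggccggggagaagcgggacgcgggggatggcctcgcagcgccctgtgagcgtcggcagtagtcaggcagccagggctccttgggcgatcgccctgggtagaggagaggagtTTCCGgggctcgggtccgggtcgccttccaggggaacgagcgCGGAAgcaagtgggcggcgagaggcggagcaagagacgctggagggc
DUSP6 held 3 matches and PHLDA1 2, while the windows of SPRY4 and SPRED1 held 0. The motif was found in 30.3% of all 35116 promoters of this length, so that a match is common. The search covered 9 listed starts of 6 of the 10 genes (DUSP6, SPRY2, SPRY4, SPRED1, SPRED2 and PHLDA1), and DUSP4 was left out of it. The first of the 3 starts of SPRY2 held 2 matches. Searched on both strands, none of the 9 windows held the AP-1 site TGANTCA, the cyclic AMP response element TGACGTCA or a CArG box, which were in 6.57%, 1.65% and 1.16% of all promoters. A match is a description of the letters and not a bound site.

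DUSP6 encodes the phosphatase that acts most selectively on ERK in the cytoplasm, and it showed the largest difference of the 10 genes. Its probe lies on the reverse strand at chr12:88266275-88266334 (hg18, the build of the scanner files). Its level (log2 of the signal over the 75th percentile of its array, as for all levels below) was 3.90 and 3.72 on the DMSO arrays, 3.66 and 3.62 with luteolin, 3.28 and 2.53 with both drugs, and 0.25 and -0.21 with gefitinib. The 2 gefitinib-titled arrays were therefore the lowest of the 10 by a wide margin, and the other 8 lay between 2.53 and 3.90. On the linear scale the processed signal was 20188 and 16962 on the DMSO arrays and 774.1 and 544.6 on the gefitinib arrays. The difference from DMSO was -3.79 ± 0.26 (SE, n = 2 arrays a group, adjusted p = 7.45e-05), which ranks 43 among the falls of all genes in that comparison. On the slide that held a DMSO and a gefitinib array the difference was -3.65. A lower level per cell and a loss from only some of the cells cannot be told apart in RNA pooled from a culture, for this or any other gene here.

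In the cells given both drugs by title, DUSP6 differed from DMSO by -0.91 ± 0.26 on the log2 scale (SE, adjusted p = 0.0255), which passed the adjusted p but not the 2-fold minimum. The 2 arrays of that group were far apart, at 3.28 and 2.53. Without the first the difference was -1.28 (adjusted p = 0.00492), past the minimum, as it was after quantile normalization (-1.11). With luteolin the difference was -0.17 with a 95% interval from -0.77 to 0.42, so that a fall of over 2-fold lies outside the interval. The order of the group means was DMSO (3.81), luteolin (3.64), 0 h (3.27), both drugs (2.91) and gefitinib (0.02). Luteolin, both drugs and DMSO did not differ from 0 h by the test, and gefitinib differed from each of the other 4 groups.

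DUSP5, the nuclear phosphatase that acts on ERK, had a higher scaled level with every drug title than on the DMSO arrays. It stood at 1.35 and 1.41 with DMSO, 2.17 and 2.85 with luteolin, 2.20 and 1.998 with gefitinib, and 1.997 and 2.61 with both drugs. On this scale no drug array overlapped the 4 arrays without a drug, which ran from 1.22 to 1.41. Of all genes, 73.8%, 82% and 75.3% had arrays that did not overlap DMSO for luteolin, gefitinib and both. Before scaling, the linear signal was 3435 and 3417 with DMSO and 5293 and 7534 with luteolin. With gefitinib it was 2995 and 2509, and with both drugs 3451 and 3295. Only with luteolin were both arrays above DMSO before scaling, and the part of the scaling in this was not tested. The rise with luteolin was 1.13 ± 0.27 (log2, SE, adjusted p = 0.0178). It lost the call without either DMSO array (adjusted p = 0.0977 without replicate 1 and 0.0835 without replicate 2) and without the second luteolin array (a change of 0.79, adjusted p = 0.125). With both drugs the difference of 0.92 passed the adjusted p alone (0.0274), and reached a call without the first array of that group (1.23, adjusted p = 0.0130). With gefitinib it was 0.72 (adjusted p = 0.0509).

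DUSP4, a nuclear phosphatase that acts on ERK and other MAP kinases, differed between the drug titles. Its level was 2.77 and 2.68 with DMSO, 2.93 and 3.45 with luteolin, 2.09 and 2.17 with gefitinib, and 3.23 and 3.37 with both. The gefitinib-titled arrays were the lowest of the 24 h arrays and lay near the 0 h arrays (2.10 and 2.43). Against DMSO the differences were 0.47 (adjusted p = 0.140), -0.60 (adjusted p = 0.0402) and 0.58 (adjusted p = 0.0564), all under 2-fold. Between both drugs and gefitinib the difference was 1.17 ± 0.21 (log2, SE, adjusted p = 0.00249), and it was 1.14 on the 1 slide that held both.

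The Sprouty genes encode membrane-bound inhibitors of receptor signaling to RAS and RAF. SPRY4, whose probe lies at chr5:141670755-141670814 (hg18, reverse strand), stood at 1.82 and 1.41 with DMSO and at 0.37 and -0.16 with gefitinib. These gefitinib-titled arrays were the lowest of the 10. The fall of 1.51 ± 0.35 on the log2 scale (SE, adjusted p = 0.0083) was -1.44 within the shared slide. Without the first DMSO array it was -1.30 and missed the adjusted p (0.0543). The luteolin arrays disagreed for SPRY4, at 1.73 and 0.58, a wider gap than that between the means of DMSO and luteolin (1.61 and 1.16). Without the first luteolin array the difference from DMSO was -1.03 and was called (adjusted p = 0.0455).

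SPRY2 gave another order. It was 2.01 and 1.87 with DMSO, 2.76 and 2.89 with luteolin, 2.01 and 1.23 with gefitinib, and 2.41 and 1.91 with both. The luteolin arrays were the highest of the 10, and both the gefitinib arrays and those with both drugs overlapped DMSO. Luteolin exceeded DMSO by 0.88 ± 0.27 on the log2 scale (SE, adjusted p = 0.0443), under the 2-fold minimum, by 0.75 on one shared slide and 1.01 on the other. The difference between gefitinib and DMSO was -0.32 with a 95% interval from -0.93 to 0.30.

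SPRED1 encodes a Sprouty-related protein that holds the RAS inhibitor neurofibromin at the membrane, and it was the 1 member lowered in 2 of the 3 comparisons with DMSO. The probe used for the gene (chr15:36433052-36433111, hg18, forward strand) stood at 0.47 and 0.40 with DMSO, 0.17 and -0.06 with luteolin, -0.80 and -1.03 with gefitinib, and -0.76 and -1.39 with both drugs. The 4 arrays with gefitinib in the title lay below all 6 others. The fall was 1.36 ± 0.22 with gefitinib (log2, SE, adjusted p = 0.00214) and 1.51 ± 0.22 with both (adjusted p = 0.00242), and the call held whichever array was left out. Within slides the difference was -1.28 for gefitinib, and -1.23 and -1.79 for both drugs. The other probe, at chr15:36431184-36431243, differed in the same direction and by less, -0.75 (adjusted p = 0.0158) and -0.90 (adjusted p = 0.0116), and missed the 2-fold minimum.

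SPRED2, which encodes the close relative of SPRED1, had 2 probes that disagreed. The one used for the gene was -0.44 and -0.27 with DMSO and -0.99 and -1.54 with gefitinib, a difference of -0.91 (adjusted p = 0.00801), under the 2-fold minimum. Without the first gefitinib array it was -1.18 and was called (adjusted p = 0.00586). The other was -4.48 and -4.64 with DMSO and -4.56 and -4.31 with gefitinib, a difference of 0.12 with a 95% interval from -0.39 to 0.63. This other probe was dim, with a linear signal of 60.5 and 51.6 with DMSO and 27.5 and 31.7 with gefitinib. The weakest spots that still counted as above background on the gefitinib arrays read 21.6 and 17.2. The dim probe thus read close to these spots, and the part of its dimness in its difference was not tested. With both drugs neither probe passed the adjusted p (0.551 and 0.0947). A fall of SPRED2 with gefitinib therefore rests on the brighter probe alone, and the dim one did not show it.

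**Figure D3:**
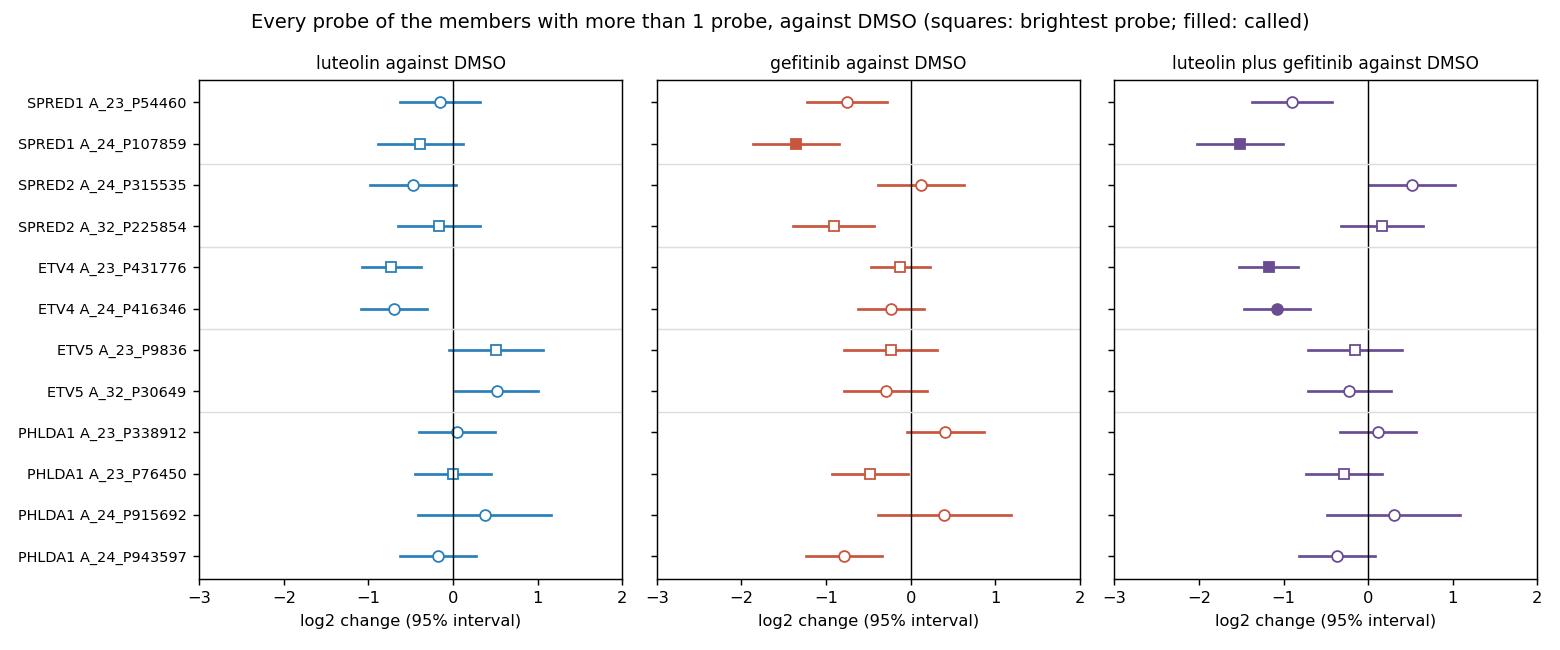
Log2 change against DMSO of all 12 probes of the 5 genes with more than 1 probe, with 95% intervals, in 1 panel per drug title. Squares are the probe used for the gene and filled symbols passed the adjusted p and the 2-fold minimum. Both ETV4 probes and both ETV5 probes lie close together, while the 2 SPRED2 probes and the 4 PHLDA1 probes spread in the gefitinib panel.

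ETV4 is an ETS-family transcription factor that carries ERK signals to genes of growth and invasion. Its level was 0.19 and 0.03 with DMSO, -0.62 on both luteolin arrays, -0.01 on both gefitinib arrays, and -0.96 and -1.17 with both drugs. On this probe, the one used for the gene, the 4 arrays with luteolin in the title were the lowest of the 10. They lay below the 0 h arrays (-0.47 and -0.40), while the gefitinib pair lay just under DMSO. The fall with both drugs was 1.18 ± 0.15 (log2, SE, adjusted p = 0.0016), and it was -1.15 and -1.21 within the 2 shared slides. With luteolin the difference of -0.73 ± 0.15 passed the adjusted p (0.0105) and not the minimum. With gefitinib it was -0.12 with a 95% interval from -0.47 to 0.22. The second probe gave -1.08, -0.70 and -0.23 for both, luteolin and gefitinib, with the call for both drugs kept (adjusted p = 0.00306). On it the luteolin arrays (-1.10 and -1.21) overlapped the 0 h arrays (-1.23 and -1.13), with a difference of 0.02.

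ETV5, the nearest relative of ETV4, was called in 0 of the 10 comparisons between groups. Its level was -1.14 and -0.90 with DMSO, -0.75 and -0.27 with luteolin, -1.44 and -1.08 with gefitinib, and -0.99 and -1.36 with both. The luteolin arrays were the highest, where those of ETV4 were among the lowest. The difference between luteolin and DMSO was 0.51 with a 95% interval from -0.04 to 1.07, and the second probe gave 0.52. The difference between ETV4 and ETV5 in their response was not tested.

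PHLDA1, a pleckstrin homology-domain protein that growth factors induce, was likewise called in 0 of the 10 comparisons. The probe used for it was 3.78 and 3.91 with DMSO, 3.84 and 3.86 with luteolin, 3.23 and 3.51 with gefitinib, and 3.36 and 3.76 with both. The gefitinib-titled arrays differed from DMSO by -0.48 (log2, 95% interval of the difference from -0.93 to -0.03, adjusted p = 0.0686). The 4 probes of PHLDA1 gave differences between gefitinib and DMSO from -0.79 (adjusted p = 0.0103) to 0.41 (adjusted p = 0.109), so a direction for the gene could not be given.

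Between 0 h and 24 h with DMSO, 0 of the 10 genes passed the threshold (limma), and few genes of any kind did, a background of 0.0355% called. Time and solvent cannot be told apart here. By an unadjusted p under 0.05 the count was 1, ETV4, with -0.47 and -0.40 at 0 h and 0.19 and 0.03 with DMSO, a difference of 0.54 ± 0.15 (log2, SE, adjusted p = 0.535). Yet all 10 genes had a higher mean with DMSO than at 0 h, where 46.8% of all genes did, and the 2 DMSO arrays lay above both 0 h arrays for 8 of them, against 23.8% of all genes. Their median change was 0.42, and that of all genes -0.02. The largest were SPRY4 at 0.70, ETV4 and DUSP6 at 0.54 each, and DUSP4 at 0.46. On the 1 slide that held a 0 h and a DMSO array, the change was 0.51 for SPRY4, 0.43 for ETV4 and 0.39 for DUSP6. The smallest there were DUSP5 at 0.04, SPRY2 at 0.02 and ETV5 at -0.02, so not all 10 genes were higher on that slide.

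The design of the series names 0 h as its reference, and against it other sets of the 10 genes were called. With luteolin 2 genes rose, DUSP5 by 1.22 and SPRY2 by 1.03 on the log2 scale, beside 16.1% of all genes called and 8.26% raised. With gefitinib 2 fell, DUSP6 (-3.25) and SPRED1 (-1.05), beside 29% called and 14.5% lowered, and SPRY4 did not pass at -0.80 (adjusted p = 0.0852). With both drugs DUSP4 rose by 1.04, DUSP5 rose by 1.01 and SPRED1 fell by 1.21, beside 19.8% called, 11.5% raised and 8.32% lowered. ETV4, called against DMSO with both drugs, differed from 0 h by -0.63 and missed the minimum. These comparisons share the 0 h arrays, and those above share the DMSO arrays.

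Several of these calls against 0 h rested on single arrays. SPRY2 with luteolin missed the threshold whichever of the 4 arrays compared was left out (0.97 to 1.10, adjusted p from 0.0654 to 0.116), and was 0.74 with the slide as a block. DUSP5 missed the threshold without the first 0 h array (adjusted p = 0.0739 with luteolin, 0.0922 with both), without the second array of luteolin (0.0841) or of both drugs (0.106), and with both drugs also without the second 0 h array (0.0661). DUSP4 with luteolin was 0.93 and gained a call without the first luteolin array (1.19) or the second 0 h array (1.10). DUSP4 with both drugs was 0.87 without the first 0 h array (adjusted p = 0.0504) and 0.97 without the second array of its group. SPRED1 was -0.94 without the second gefitinib array and -0.89 without the second array with both drugs, each under 2-fold. Its other probe was called in neither comparison, at -0.45 with gefitinib (adjusted p = 0.0965) and -0.60 with both (adjusted p = 0.0488).

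Set against each other, the gefitinib-titled and luteolin-titled arrays differed in 4 of the 10 genes, all lower with gefitinib: DUSP6 (-3.62 on the log2 scale), SPRY2 (-1.20), DUSP4 (-1.06) and SPRY4 (-1.05). The background of this comparison was 36.6% called and 18.1% lowered. The median change of the 10 genes was -0.86, and that of all genes 0.15. By the adjusted p alone 7 genes were lower and 1, ETV4, was higher (0.61, adjusted p = 0.00904), beside 60.4% of all genes. Without the second gefitinib array 2 genes were called, DUSP4 and DUSP6, with SPRY2 at -0.81 and SPRY4 at -0.79, and without the first 6 were, SPRED1 and SPRED2 besides. Without the first luteolin array SPRY4 was -0.48 and not called. Without the second DUSP4 was -0.80 and not called, and SPRED1 was -1.09 and called. With the slide as a block DUSP4 was -0.94 and not called.

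The cells given both drugs differed from the gefitinib-titled cells in 5 of the 10 genes, with a background of 27% called, 17.2% raised and 9.76% lowered. DUSP6 was higher by 2.88, DUSP4 by 1.17, SPRED2 by 1.08 and SPRY4 by 1.00, and ETV4 was lower (-1.05). DUSP6 on the arrays with both drugs (3.28 and 2.53) thus lay nearer to luteolin (3.66 and 3.62) than to gefitinib (0.25 and -0.21). SPRY4 was at the edge of the threshold (adjusted p = 0.0455), and missed it without either 0 h array (0.0640) or either DMSO array (0.0589), which enter only through the shared estimate of the spread. It also missed it without either array with both drugs (0.152 and 0.0976) or the second gefitinib array (a difference of 0.74). SPRED2 was 0.80 without the second gefitinib array, 0.95 without the second array with both drugs and 0.88 with the slide as a block, and not called. ETV4 was -0.95 without the second array with both drugs, and not called. These 2 calls also depended on the probe. The other probe gave 0.39 for SPRED2 (adjusted p = 0.177) and -0.85 for ETV4, neither of them called. That of SPRED2 is the dim probe described above.

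Between both drugs and luteolin alone only SPRED1 was called, at -1.13 (adjusted p = 0.00562), beside 21% of all genes called and 9.75% lowered. It was -0.81 without the second array with both drugs, and not called. The other probe of SPRED1 gave -0.74, under the 2-fold minimum. ETV4 passed the adjusted p alone (-0.45, adjusted p = 0.0438). DUSP6 differed by -0.74 with a 95% interval from -1.33 to -0.14 (adjusted p = 0.0507), and without the first array with both drugs it was called at -1.11. For DUSP4, SPRY4 and DUSP5 the intervals of the difference held 0, from -0.37 to 0.59, from -0.86 to 0.76 and from -0.83 to 0.41.

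Around the 10 genes, 5 lists of other genes of the pathway held 61 symbols, of which 58 were tested. Against DMSO 7 rose and 4 fell with luteolin (19% of the 58, background 13.4%), 9 rose and 6 fell with gefitinib (25.9%, background 29.9%), and 11 rose and 2 fell with both (22.4%, background 19.8%). Their median changes were 0.15, 0.27 and 0.20 on the log2 scale. The count with luteolin was 5 without the first DMSO array, 7 without the second and 3 without the second luteolin array.

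**Figure D4:**
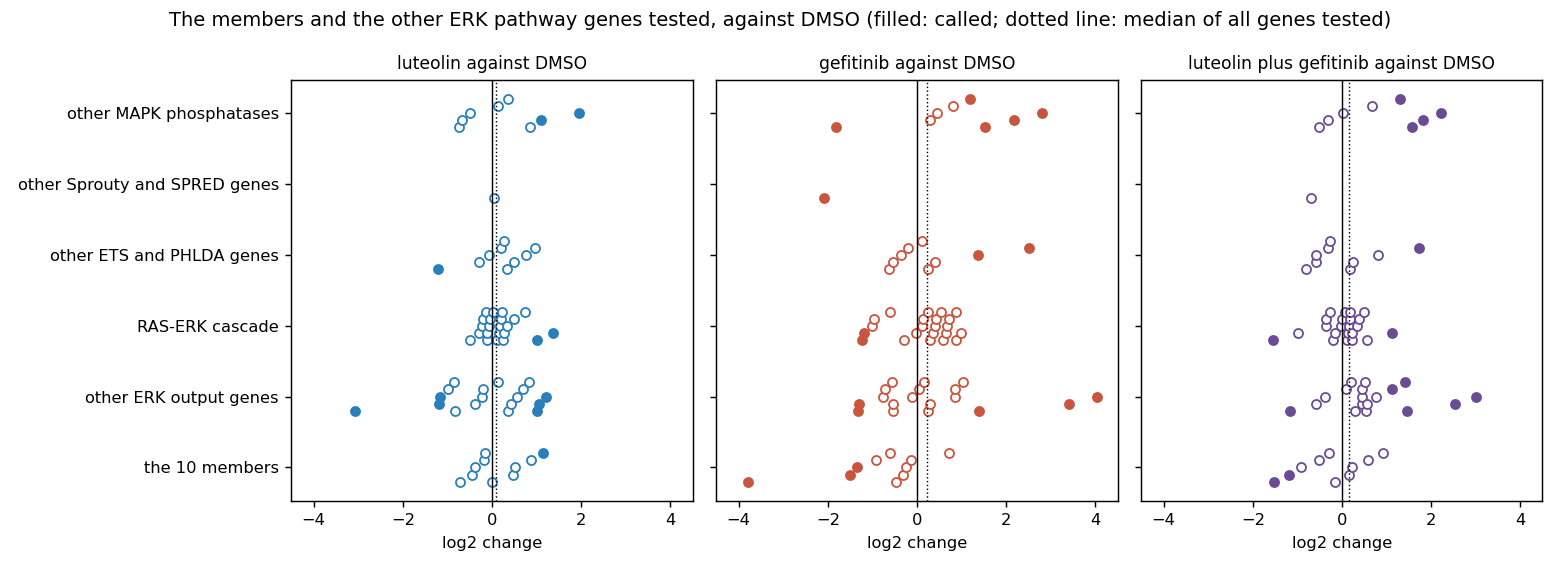
Log2 change against DMSO of the 58 other ERK pathway genes tested, by list, and of the 10 genes followed here, in 1 panel per drug title. Filled points passed the adjusted p and the 2-fold minimum, and dotted lines mark the median of all genes tested. The other MAPK phosphatases called with gefitinib or both drugs lie to the right of 0 with the exception of DUSP7, while the called members in these 2 panels lie to the left.

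Among the 8 other MAPK phosphatases, 4 rose and 1 fell with gefitinib, 4 rose with both drugs and 2 rose with luteolin. These are 62.5%, 50% and 25% of the list, beside 29.9%, 19.8% and 13.4% of all genes. DUSP10 and DUSP16, which act mainly on the stress kinases JNK and p38, rose with every drug title. DUSP16 was -1.32 and -0.98 with DMSO, -0.35 and 0.26 with luteolin, 2.02 and 1.30 with gefitinib, and 0.26 and 0.60 with both, a rise of 1.11, 2.81 and 1.58 (log2). DUSP10 rose by 1.95, 2.17 and 2.21. DUSP1, an immediate early phosphatase, rose by 1.81 with both drugs, from -0.04 and -0.44 to 1.80 and 1.34. It was also called raised with gefitinib, at 1.46 and 0.43. DUSP7, a cytoplasmic ERK phosphatase of the same subfamily as DUSP6, was not well above background on either gefitinib array while it was on both DMSO arrays (-5.17 and -5.22). The floor of the dim arrays leaves no fold to give for DUSP7 (adjusted p = 0.000866).

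Of the 3 other Sprouty and SPRED genes 1 was tested, SPRY1. It fell with gefitinib by 2.09 ± 0.42 (log2, SE, adjusted p = 0.00458), from 0.33 and -0.01 with DMSO to -1.47 and -2.40. Of the 9 other ETS and PHLDA genes, ETS1 fell with luteolin by 1.22, from -2.41 and -2.51 to -3.59 and -3.77. ETS2 rose with gefitinib by 2.50 and with both drugs by 1.73. PHLDA2 rose with gefitinib by 1.38, from 4.71 and 4.83 to 6.11 and 6.18.

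In the RAS-ERK cascade itself, 2 of 22 genes (9.09%) were called with each drug title against DMSO, beside 13.4%, 29.9% and 19.8% of all genes. NF1, which encodes the RAS inhibitor neurofibromin, fell with gefitinib by 1.18 and with both drugs by 1.54. SOS1, an activator of RAS, fell with gefitinib by 1.23 and was well above background on 1 of the 2 gefitinib arrays. RPS6KA2 and RPS6KA3, kinases that ERK activates, rose with luteolin by 1.36 and 1.00, and NRAS rose with both drugs by 1.11.

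Of 18 other ERK output genes, 6 were called with luteolin, 5 with gefitinib and 6 with both, in both directions. These are 33.3%, 27.8% and 33.3% of the list, beside 13.4%, 29.9% and 19.8% of all genes. FOS, an immediate early transcription factor, was -3.29 and -4.45 with DMSO, 0.84 and -0.52 with gefitinib and -1.05 and -1.61 with both, a rise of 4.03 and 2.54 (log2). CXCL8, the cytokine interleukin-8, rose by 3.41 and 3.02, and LIF, a cytokine of the interleukin-6 family, by 1.39 and 1.46. SPRED1 fell in the same 2 comparisons. With luteolin EGR1, an immediate early factor, was not well above background on either array, and DMSO (-2.74 and -4.87) was at least 3.31-fold higher (adjusted p = 0.0105). The DMSO arrays were far apart, and the bound was 1.58-fold without the first and 6.93-fold without the second. EPHA4 rose with luteolin by 1.21, and its relative EPHA2 fell by 1.18.

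The genes whose profiles over the 10 arrays were nearest to those of 4 members were found by the root-mean-square difference of centred log2 levels, as a description. For DUSP6 they were the transcripts named THC2503773 and BC069781 and the zinc finger gene ZNF671, at 0.19, 0.21 and 0.22, beside an SD of DUSP6 over the arrays of 1.40. ZNF671 differed between gefitinib and DMSO by -3.66 and between both drugs and DMSO by -0.63. For SPRY4 they were TCF7L2, the small RNA SCARNA17 and ATXN7L1, at 0.21, 0.26 and 0.27 (SD of SPRY4 0.58). For ETV5 they were the transcripts BF803156 and AA743218 and USP3, at 0.08, 0.08 and 0.10 (SD of ETV5 0.32), and for PHLDA1 the transcripts ENST00000328644 and THC2477828 and HMGN4, at 0.13, 0.14 and 0.15 (SD of PHLDA1 0.24).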

How the data were processed

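Total RNA of PC-3 cells was labelled with Cy3 and hybridized to 10 single-color arrays, 2 per group. Per the file headers, the deposited values are intensities: the gProcessedSignal of Agilent Feature Extraction 10.7.3.1, a linear signal after subtraction of background and spatial trend, with no scaling between arrays. The authors' value table held the same intensities. The authors analysed their values with Subio software and a one-sample t-test, called here the methods' t-test.

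Control and outlier spots were left out. Signals were taken as log2, minus the log2 of the 75th percentile of each array. A probe was kept if both arrays of some group had it well above background (28776 of 41000 probes), and a gene was represented by its probe with the highest mean. The 10 arrays were fitted with limma 3.58.1 in R 4.3.3, with 5 groups sharing 1 estimate of the spread (5 residual and 3.36 prior degrees of freedom). Errors are SE of the fit, intervals are 95%, and p-values are two-sided, adjusted by Benjamini-Hochberg over the kept probes within each of the 10 comparisons. Calls need a 2-fold change or more, and an adjusted p below 0.05. The fit was tested on simulated data that gave each probe the same spread in every group. Unequal spread between groups was thus not covered. With 2 arrays a group, the number of arrays limits the precision, and p-values measure the spread between these arrays, whose cultures the labels call biological replicates and describe no further.

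The members and lists were chosen with earlier results of these data known. Named genes are all 10 members, up to 3 called genes per list and comparison against DMSO by size of change, and the 3 nearest profiles of DUSP6, SPRY4, ETV5 and PHLDA1. The alternatives were another background correction (normexp), quantile normalization, other filters and summaries of probes, the value table, slide or replicate as a block, only the groups compared, no minimum fold, the methods' t-test, the treatments of the file names and each array left out. Gene names and probe coordinates (hg18) are those of the scanner files, and sequences come from RefSeq tables. Some marker genes checked are not reported here.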

Additional observations from a re-analysis of the deposited data

How the results depend on the processing

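The names of the scanner files decide which drug a result belongs to. Taking the treatments from them, the counts of the 10 genes called against DMSO became 2 for luteolin (SPRED1 and ETV4), 1 for gefitinib (DUSP5) and 3 for both (DUSP6, SPRY4 and SPRED1), with DUSP6 at -0.17 for gefitinib, and there was 1 for gefitinib against luteolin and 5 for both drugs against luteolin. The sign turned for 17 changes called under the titles or the file names (log2), besides changes called under neither. Against 0 h these were DUSP4 with both drugs (-0.13), and DUSP6 (0.37) and SPRY2 (1.03) with gefitinib. For gefitinib against luteolin they were DUSP6 (0.74), SPRY2 (0.66), SPRY4 (0.048) and SPRED1 (1.13). For both drugs against luteolin they were DUSP4 (-1.17), SPRED1 (0.16), SPRED2 (-1.08) and ETV4 (1.05). For both drugs against gefitinib they were DUSP4 (-1.06), DUSP6 (-3.62), SPRY2 (-1.20), SPRY4 (-1.05), SPRED2 (-0.75) and ETV4 (0.61). No other alternative turned a sign of a called change.

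The methods' t-test, with 1 degree of freedom, called DUSP6 with gefitinib and no other of the 10 genes against DMSO, unadjusted (0, 1 and 0 for luteolin, gefitinib and both). It called 0 for DMSO against 0 h and 1, 1 and 1 for the drug groups, 2 for gefitinib against luteolin, 0 for both against luteolin and 2 for both against gefitinib, and 0 in all of these after Benjamini-Hochberg. Of the 58 pathway genes it called 5, 4 and 3 against DMSO, and 0 after adjustment. With no minimum fold the counts of the 10 genes were 3, 5 and 4 against DMSO, 4 for gefitinib against 0 h, 8 for gefitinib against luteolin and 2 for both against luteolin, and the pathway counts were 30 for gefitinib and 20 for both.

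Under normexp 1 gene was called in each drug group against 0 h, 0 for both against luteolin and 2 for both against gefitinib, and the pathway count with luteolin was 6. Under quantile normalization the counts were 1 for both against 0 h and 3 for both against gefitinib. With the median over probes they were 1 for gefitinib against 0 h, 0 for both against luteolin and 3 for both against gefitinib, with 7 pathway genes for luteolin. With the slide as a block 1 gene was called for luteolin against 0 h, SPRY4 with gefitinib reached a call there (-1.08), and DUSP4 for gefitinib against luteolin (-0.94) and SPRED2 for both against gefitinib (0.88) lost theirs. The raised share of all calls with gefitinib against DMSO was 52.3%, and 66.3% under normexp and 40.2% under quantile normalization, with the median of all genes at 0.22, 0.37 and 0.05. With both drugs the share was 61.1%, 71.3% and 44.8%, and the median 0.16, 0.29 and 0.00. The cause of these differences was not tested.

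Leaving out 1 array gave 0 to 2, 2 to 4 and 2 to 4 calls among the 10 genes against DMSO for luteolin, gefitinib and both, and 0 to 0, 0 to 2, 1 to 2 and 0 to 3 against 0 h for DMSO and these. It gave 2 to 6 for gefitinib against luteolin, 0 to 2 for both against luteolin and 2 to 5 for both against gefitinib, and 3 to 13, 14 to 15 and 9 to 16 for the pathway genes. DUSP6 with gefitinib against DMSO ran from -4.02 to -3.56 and was called over the 19 alternatives that changed the values, the fit or the arrays. It lost the call under the file names and in the methods' t-test after adjustment (adjusted p = 0.214). Same-numbered deviations correlated at -0.09 to 0.29, above 0.1 in 6 of 10 pairs of groups and not in all, so the replicate numbers were not taken to pair the samples. With the replicate block the counts of the 10 genes stayed at 1, 3 and 2 against DMSO, 0, 2, 2 and 3 against 0 h, and 4, 1 and 5 between the drugs.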
